A study of Mus musculus with 6 samples.

Results

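MHC class II presentation was followed through 10 genes, chosen by symbol from the table of gene names that accompanies the counts and all found there, among 55536 genes counted. They encode the classical class II chains (H2-Aa, H2-Ab1 and H2-Eb1), the invariant chain (Cd74), the peptide exchange factors H2-DM and H2-O (H2-DMa, H2-DMb1, H2-DMb2 and H2-Oa), a protease that trims the invariant chain (Ctss) and the transcriptional regulator of the class II genes (Ciita). All 10 passed the filter on low counts.

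RNA was sequenced from tumors that HCA-1 cells, a murine hepatocellular carcinoma line, formed in the livers of male C3H mice (C3H/HeNCrNarl in the study's methods) aged 6 to 8 weeks. The control group held 3 tumors, numbered 5, 6 and 7, of mice left untreated, and no library of an empty nanogel or of either drug alone is among the 6. The GOx-DOX-LGP group held 3 tumors, numbered 1, 2 and 5, of mice given a lipid, gelatin and protamine nanogel (LGP) into a vein, which carried glucose oxidase (GOx), an enzyme that consumes glucose, and doxorubicin (DOX), a cytotoxic drug. These are called treated tumors 1, 2 and 5 from here on. The labels place the doses on days 18, 19 and 20, but the transcriptome analysis on day 17 after 3 h of circulation. For tumors used in quantitative PCR, the study's methods give the same dosing days, with harvest on the day after the last dose. The methods for sequencing give no schedule, and a figure legend of the study gives a longer regimen for the same nanogel. Every tumor came from the same cell line in the same strain. The labels do not say that each library is a separate animal, so p-values measure the spread between these libraries.

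MHC class II molecules present peptides from endocytosed proteins to CD4+ T cells. An alpha and a beta chain pair in the endoplasmic reticulum around the invariant chain, which is cut away by cathepsin S in the endosome and replaced by a peptide with the help of H2-DM, a step that H2-O restrains. Dendritic cells and B cells express the classical chains, the invariant chain and H2-DM constitutively, and many other cells do so after interferon gamma. CIITA switches the genes of these proteins on together through promoter elements named the X and Y boxes.

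The upstream sequences of class II genes are printed to show where letters of these elements occur, in full or in part. RefSeq windows of 300 bases on GRCm38.p6, with 250 bases before the first transcribed base and 50 from it on, were given for 7 of the 9 members other than Cd74. Stretches of 87 bases are shown 5′ to 3′ on the gene's own strand, and capitals mark matches to TGATTGG (Y box), AACNNATG (core of the X box) or GAAANNGAA (interferon response element), each searched on both strands, with N any base and left in lower case.
H2-Aa: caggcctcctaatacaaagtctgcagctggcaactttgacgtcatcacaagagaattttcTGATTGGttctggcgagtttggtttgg
H2-Eb1: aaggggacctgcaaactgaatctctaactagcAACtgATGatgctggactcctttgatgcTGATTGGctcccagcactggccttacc
H2-DMb1: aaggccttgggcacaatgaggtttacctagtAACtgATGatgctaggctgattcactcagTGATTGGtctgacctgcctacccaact
H2-DMb2: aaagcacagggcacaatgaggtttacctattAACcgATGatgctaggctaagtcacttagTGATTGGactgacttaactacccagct
H2-Oa: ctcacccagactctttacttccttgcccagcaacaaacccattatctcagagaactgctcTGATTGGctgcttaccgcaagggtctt
H2-Ob: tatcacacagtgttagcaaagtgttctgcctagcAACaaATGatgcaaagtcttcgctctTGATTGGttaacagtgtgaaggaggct
Ctss: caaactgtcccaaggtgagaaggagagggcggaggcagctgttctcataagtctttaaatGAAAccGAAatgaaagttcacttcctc

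These stretches lie at chr17:34287847-34287933 on the minus strand for H2-Aa and on the plus strand for the others, at chr17:34305746-34305832 (H2-Eb1), chr17:34153068-34153154 (H2-DMb1), chr17:34145097-34145183 (H2-DMb2), chr17:34092274-34092360 (H2-Oa), chr17:34238786-34238872 (H2-Ob, the partner of H2-Oa and no member) and chr3:95526705-95526791 (Ctss). The Y letters were present in windows of 5 members and in 7.82% of 32851 windows of all genes, and the X letters in 4 members and 8.86% of windows. H2-Eb1, H2-DMb1 and H2-DMb2 held X and Y together, as did 0.785% of all windows. From the first base of X to the first base of Y there were 28 bases in H2-Eb1, 29 in H2-DMb1 and H2-DMb2, and 26 in H2-Ob. Ctss held the X letters at -207 from its first transcribed base, outside the stretch printed, and no Y letters. Alone among the members it held the interferon response letters, which 8.56% of windows have. No match overlapped another. The letters were chosen after these windows had been read, the reference is C57BL/6 and not C3H, and a match is not a measured binding site. H2-DMa had 2 windows with none of the letters, and no window was given for H2-Ab1 or Ciita.

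Across the 6 libraries the class II genes varied together, with H2-Oa as the exception, but the groups overlapped for each of them. In sum, control 5 carried more class II RNA than treated tumor 1, and controls 6 and 7 carried the least. By the quasi-likelihood test of edgeR, adjusted over 15374 genes after Benjamini and Hochberg, 0 of 10 members had an adjusted p under 0.05, as did 0% of all genes tested. At an unadjusted p under 0.05 the count of members was also 0, against 17.5% of all genes. DESeq2 called 0 of 10 members and 9.43% of genes, and limma voom 0 of 10 and 0%.

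The fitted log2 fold change was above 0 for 9 of 10 members, with a median of 0.92, where the median over all genes was 0.02. Members with all 3 GOx-DOX-LGP tumors above all 3 controls numbered 0 of 10, against 8.87% of all genes, and members with all 3 below numbered 0 of 10, against 8.31%. Levels are CPM, library-scaled counts with TMM factors, and in a bulk tumor a lower level cannot tell fewer cells of a type from less RNA per cell.

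**Figure D1:**
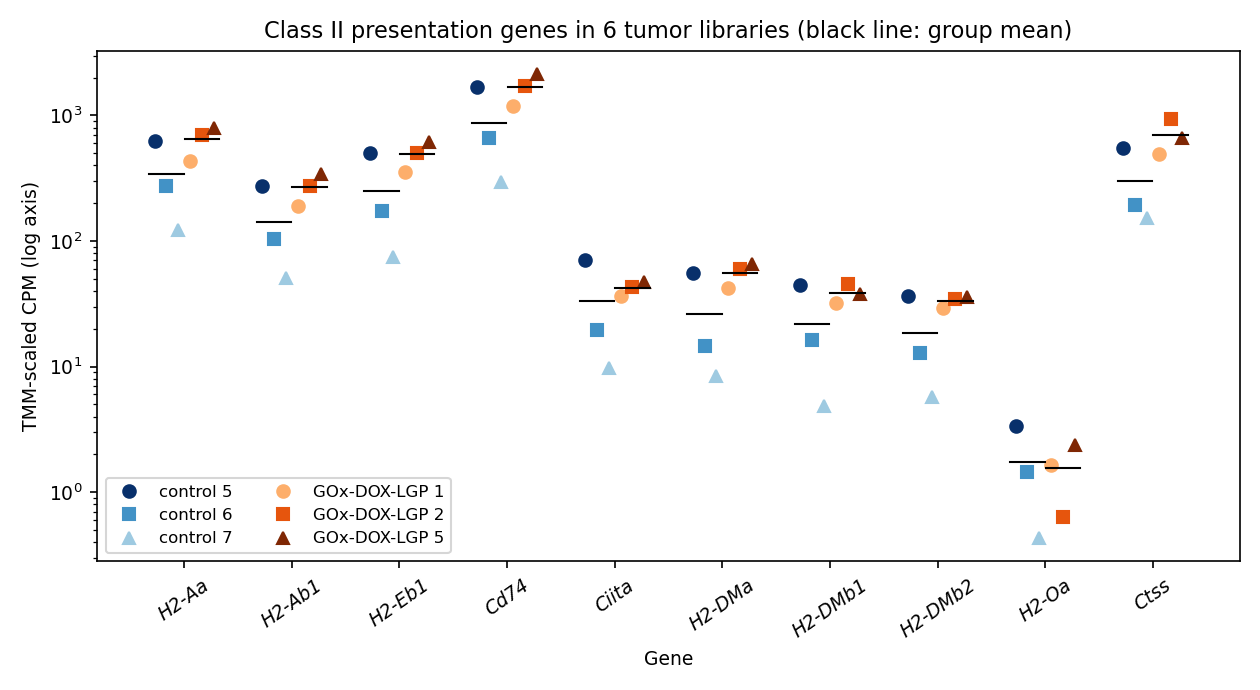
Level of each class II gene (TMM-scaled CPM, logarithmic axis) in the 3 control tumors (blue) and the 3 GOx-DOX-LGP tumors (orange), with black lines at the group means. Control 5 lies above treated tumor 1 for each gene, and controls 6 and 7 lie below all treated tumors for 9 of 10 genes, H2-Oa being the exception.

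Library totals lay between 15529940 and 18401178 counts, so that 3 counts, taken as the smallest level a library can show, came to between 0.132 and 0.323 CPM. Controls 6 and 7 stood apart from the other libraries in hepatocyte RNA. The 10 hepatocyte marker genes took 9.41% and 11.7% of all counts there, against 0.0836% in control 5 and between 0.169% and 0.435% in the treated tumors. Of the genes listed for liver tumor cells, Krt18 and Krt8, keratins of hepatocytes and hepatocellular carcinoma, were between 313 and 790 CPM in all libraries, whereas Afp, the fetal liver protein, was at most 13.2 CPM and Igf2 was at most 0.254 CPM and at 0 in 3 libraries. Over the 6 liver tumor genes that passed the filter the median log2 fold change was 0.0028, and 0 were called by edgeR or DESeq2.

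H2-Aa (ENSMUSG00000036594) encodes the alpha chain of the I-A molecule and is found on chromosome 17 (GRCm38, 34282744 to 34287823). It measured 625.7, 272.2 and 123.3 CPM in controls 5, 6 and 7, against 434.6, 704.3 and 794.6 CPM in treated tumors 1, 2 and 5. Control 5 was above treated tumor 1 and below the others, so the groups overlapped. The means were 340.4 ± 258 CPM and 645 ± 187 CPM (SD, n = 3 each), and the fitted log2 difference was 0.92 (standard error 0.64, edgeR adjusted p 0.453).

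H2-Ab1 (chromosome 17, 34257689 to 34269419), the beta chain that pairs with it, measured 272.2, 103.9 and 50.8 CPM in controls 5, 6 and 7, against 190.9, 274.3 and 338.7 CPM in treated tumors 1, 2 and 5. The order of the libraries was that of H2-Aa, with control 5 next to treated tumor 2. Its log2 fold change was 0.91 (standard error 0.63, edgeR adjusted p 0.455).

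H2-Eb1 (chromosome 17, 34305867 to 34316674) is the beta chain of the I-E molecule. It measured 500.0, 173.9 and 74.6 CPM in the controls, in the same order, against 353.7, 503.1 and 614.6 CPM in the treated tumors. Control 5 and treated tumor 2 were nearly equal. For H2-Eb1 the log2 fold change came to 0.97 (standard error 0.70, edgeR adjusted p 0.469).

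The alpha chain of I-E is annotated as a polymorphic pseudogene, H2-Ea-ps (chromosome 17, 34341959 to 34344645), because C57BL/6 mice, the source of the reference, carry a broken copy, whereas C3H mice carry an intact one. It is no member, but these tumors contained its RNA at 410.8, 163.5 and 79.6 CPM in the controls, against 275.6, 451.5 and 470.4 CPM in the treated tumors. For every 100 counts of H2-Eb1 there were between 76.5 and 107 counts of H2-Ea-ps in a library. H2-Eb2, a further beta chain gene, stayed at or under 0.658 CPM and did not pass the filter.

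Cd74 (chromosome 18, 60803848 to 60812652), the invariant chain, had the highest level per length of the 10 genes. It measured 1679, 658 and 296 CPM in controls 5, 6 and 7, against 1198, 1702 and 2139 CPM in treated tumors 1, 2 and 5, with raw counts from 2750 to 41117. Control 5 exceeded treated tumor 1 and fell just short of tumor 2. Cd74 had a log2 fold change of 0.94 (standard error 0.70, edgeR adjusted p 0.482). A microRNA gene, Mir5107, lies within its exons on the same strand.

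H2-DM, which exchanges the last piece of the invariant chain for a peptide, is made of H2-DMa and either of 2 beta chains. H2-DMa (chromosome 17, 34119541 to 34139101) measured 55.8, 14.6 and 8.39 CPM in the controls, against 42.3, 59.4 and 65.5 CPM in the treated tumors, a log2 fold change of 1.08 (standard error 0.70, edgeR adjusted p 0.431). H2-DMb1 (34153072 to 34160230) measured 44.7, 16.3 and 4.84 CPM in the controls, against 31.9, 45.3 and 37.9 CPM in the treated tumors, a log2 fold change of 0.80 (standard error 0.73, edgeR adjusted p 0.547). H2-DMb2 (34143307 to 34151555) measured 36.5, 12.9 and 5.70 CPM in the controls, against 29.3, 34.4 and 35.8 CPM in the treated tumors, a log2 fold change of 0.85 (standard error 0.64, edgeR adjusted p 0.484). For H2-DMb2 no GOx-DOX-LGP tumor exceeded control 5, and for H2-DMb1 tumor 2 alone did. The beta chain genes are near copies, and 22.65% of the stretches of 50 bases in H2-DMb1 transcripts and 25.9% of those in H2-DMb2 transcripts also occur in another gene, mostly each other, so the division of counts between them is uncertain. H2-DMa shares 8.43% of its stretches with Brd2, which overlaps it on the opposite strand, and the use of strand in counting is not given in the sources used here.

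H2-O, the inhibitor of H2-DM found in B cells and some dendritic cells, was the exception to the common pattern. H2-Oa (chromosome 17, 34092340 to 34095234), its alpha chain, measured 3.38, 1.44 and 0.430 CPM in controls 5, 6 and 7, against 1.63, 0.637 and 2.39 CPM in treated tumors 1, 2 and 5. These rest on 77, 17 and 4 counts and on 33, 13 and 46 counts. Here treated tumor 2 lay below control 6, which was true of no other member. The log2 fold change of -0.22 (standard error 0.79, edgeR adjusted p 0.880) changed sign under some scalings and with some libraries left out. Of its stretches 15.5% are shared with BC051537 on the opposite strand.

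Ctss (chromosome 3, 95526786 to 95556403), cathepsin S, had the largest fitted difference of the 10. It measured 551, 193 and 153 CPM in the controls, against 495, 931 and 666 CPM in the treated tumors. Treated tumor 2 was the highest of the treated tumors, where tumor 5 was for 8 of the 10 members. The fitted log2 fold change was 1.22 (standard error 0.59), the adjusted p was 0.335 by edgeR and 0.221 by DESeq2, and the exact permutation test (two-sided, smallest possible p 0.1) gave a p of 0.2.

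Ciita (chromosome 16, 10480059 to 10528418), the regulator on which the class II promoters depend, had the smallest positive difference. It measured 71.0, 19.5 and 9.69 CPM in the controls, against 36.8, 42.8 and 46.9 CPM in the treated tumors. Control 5 was above every treated tumor, by 1.51-fold over the nearest. The log2 fold change was 0.33 (standard error 0.70, edgeR adjusted p 0.789), and it turned negative in the edgeR fit scaled to leukocyte genes (-0.21) or without control 7 (-0.11), among other settings, whereas the log2 difference per leukocyte list count was 0.06.

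Per kilobase of exon, where levels of different genes can be set side by side, Cd74 led with a mean of 762 CPM per kb over the 6 libraries, followed by Ctss (367), H2-Eb1 (190.3), H2-Aa (129.7), H2-Ab1 (79.9), H2-DMb1 (17.9), H2-DMb2 (14.7), H2-DMa (11.9), Ciita (3.96) and H2-Oa (1.17). Each gene was above the next in all 6 libraries, apart from H2-DMb1, which was above H2-DMb2 in 5 of 6. The order depended on the length used, since with the longest transcript H2-Ab1 reached 169 CPM per kb, above the 153 of H2-Aa, and H2-DMa reached 20.4, above the 17.4 of H2-DMb2. The reference is C57BL/6 and not C3H, and the effect of strain differences on these levels was not tested.

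The spread between control tumors was large for every member. Control 5 was above control 6, and control 6 above control 7, in 10 of 10 genes, and control 5 exceeded the mean of the other controls by 3.16-fold to 4.86-fold. The treated tumors differed less, with treated tumor 1 the lowest of them for 9 of 10 members. From the lowest to the highest library a member's level varied 6.07-fold to 9.35-fold. Summed over the 10 genes, class II counts made up 0.476% (95% Wilson interval 0.472 to 0.479), 0.111% (0.109 to 0.112) and 0.0413% (0.0403 to 0.0423) of all counts in controls 5, 6 and 7. In treated tumors 1, 2 and 5 the shares were 0.348% (0.345 to 0.351), 0.520% (0.517 to 0.524) and 0.587% (0.583 to 0.591). The intervals cover counting error only and are far narrower than the differences between tumors.

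The number of members called depended on control 5. Without control 5, the edgeR test called 9 of 10 members higher in GOx-DOX-LGP tumors, against 22.2% of 16249 genes, with log2 fold changes of 1.55 (Ciita) to 2.30 (H2-DMa) and adjusted p between 0.00126 and 0.0154, while H2-Oa had 0.72 (adjusted p 0.446). In that comparison 9 of 10 members had no overlap between the groups, against 36.8% of genes. Without controls 6 and 7, control 5 was left alone and taken to vary as the treated tumors do. The edgeR log2 fold change was then 0.01 for Cd74, 0.06 for H2-Aa, -0.01 for H2-Ab1, -0.02 for H2-Eb1, -0.74 for Ciita and 0.35 for Ctss. Leaving out treated tumor 1, the lowest treated tumor, put the remaining treated tumors above all controls for 6 of 10 members, against 12.3% of genes. In that fit edgeR called 0 of 10 members and 0 of 16246 genes.

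**Figure D2:**
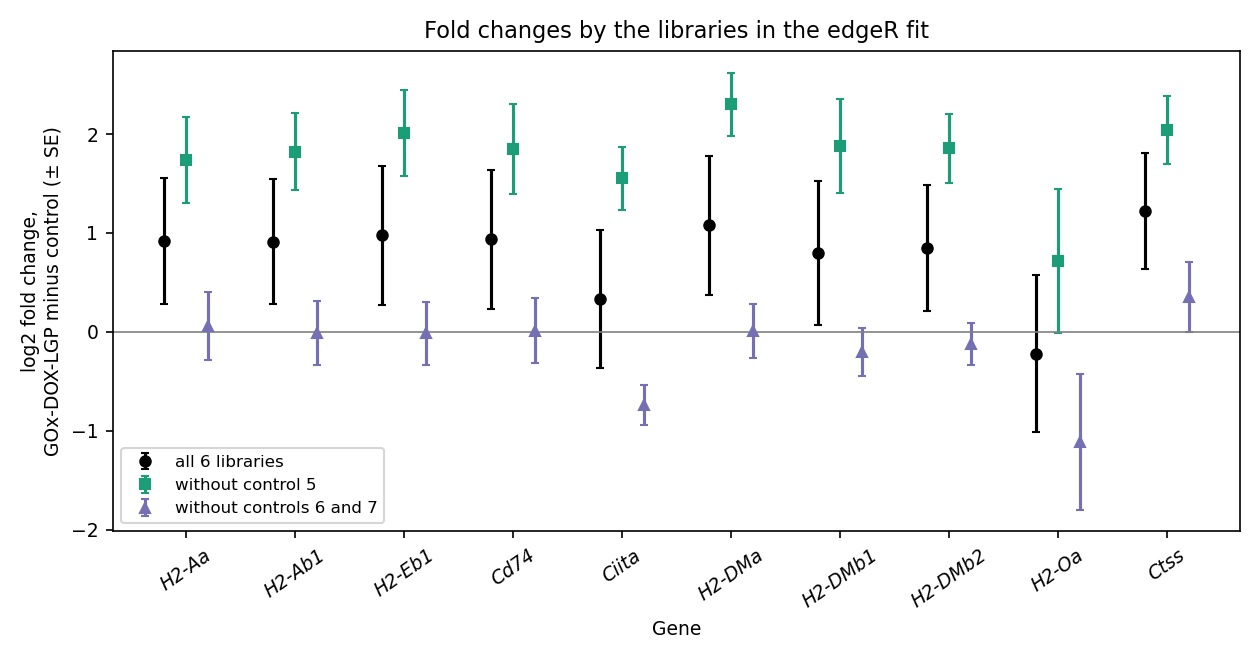
The log2 fold change of each class II gene (GOx-DOX-LGP minus control, with its standard error) from edgeR with all 6 libraries (black), without control 5 (green) and without controls 6 and 7 (purple). With all libraries the values center near 0.92, without control 5 near 1.85, and without controls 6 and 7 near 0.

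Within a library, the classical chains stood in nearly fixed ratio to the invariant chain. This measure, chosen after values had been seen, does not depend on scaling between libraries. For every 100 Cd74 counts there were 37.3, 41.4 and 41.7 counts of H2-Aa in controls 5, 6 and 7, against 36.3, 41.4 and 37.1 in treated tumors 1, 2 and 5. For H2-Ab1 the numbers were 16.2, 15.8 and 17.2 in the controls, against 15.9, 16.1 and 15.8 in the treated tumors. For H2-Eb1 they were 29.8, 26.4 and 25.2 and 29.5, 29.6 and 28.7. The highest library exceeded the lowest by 1.09-fold to 1.18-fold for these chains, whose levels in CPM varied at least 6.44-fold. Other members were less tied to Cd74. The highest library exceeded the lowest by 1.93-fold for Ciita, 1.87-fold for Ctss, 1.63-fold for H2-DMb1, 1.59-fold for H2-DMa and 1.46-fold for H2-DMb2. Ciita was at 4.23, 2.96 and 3.27 counts in the controls, against 3.07, 2.51 and 2.19 counts in the treated tumors.

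H2-Oa varied most against Cd74, by 5.85-fold from the lowest to the highest library. It had 0.201, 0.219 and 0.145 counts per 100 Cd74 counts in controls 5, 6 and 7, against 0.136, 0.0374 and 0.112 in treated tumors 1, 2 and 5, a log2 difference of -1.16 with all treated tumors below all controls. Of the 9 members compared with Cd74 it was the single one without overlap, where 4.57% of all genes were lower and 0.735% higher without overlap, and 0 of 9 members were higher. The value of control 7 rests on 4 counts, and its 95% exact Poisson interval, 0.0396 to 0.372, covers the ratios of GOx-DOX-LGP tumors 1 and 5. H2-Ob (chromosome 17, 34238903 to 34254414), the beta chain of H2-O and no member, had 0.938, 0.928 and 1.16 counts per 100 Cd74 counts in the controls, against 0.701, 0.389 and 0.567 in the treated tumors, a log2 difference of -0.90. The groups did not overlap for H2-Ob either, and the exact permutation p was 0.1 for each gene, the smallest that 3 against 3 allows (two-sided). The B cell markers, 8 genes, summed to between 8.95 and 15.2 CPM in the controls and between 9.05 and 10.7 CPM in the treated tumors, with a median log2 fold change of -0.39 over the 4 genes that passed the filter, and the part of B cells in this ratio was not tested.

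**Figure D3:**
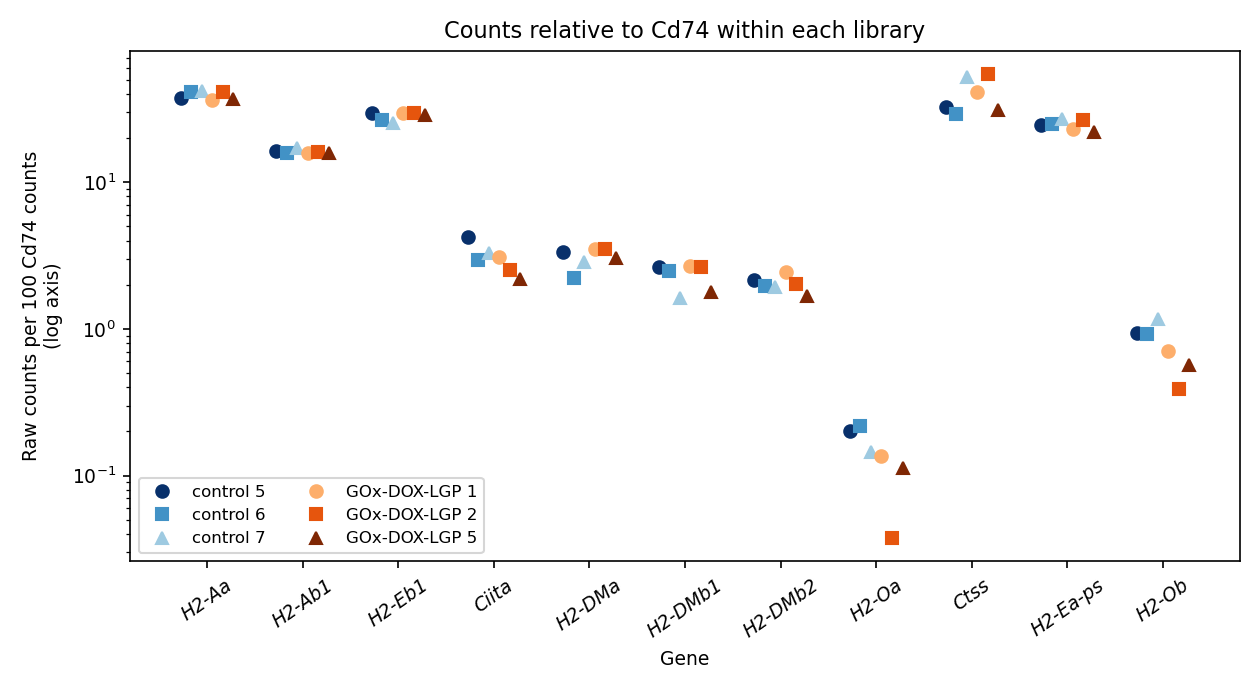
Raw counts of each gene per 100 Cd74 counts of the same library (logarithmic axis) for 9 members and for H2-Ea-ps and H2-Ob. The points of H2-Aa, H2-Ab1 and H2-Eb1 nearly coincide in all 6 libraries, whereas those of H2-Oa and H2-Ob are lower in all GOx-DOX-LGP tumors (orange) than in all controls (blue).

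Class II genes are made mainly by leukocytes, so each member was also set against marker lists of immune cells. Of the 10 general leukocyte genes, 8 had all GOx-DOX-LGP tumors above all controls, with Laptm5, a lysosomal protein of blood cells, at 151, 100.1 and 63.1 CPM in controls 5, 6 and 7, against 153, 226 and 196 CPM in treated tumors 1, 2 and 5. The list summed to between 421 and 738 CPM in the controls and between 782 and 1057 CPM in the treated tumors, its median log2 fold change was 0.91, and edgeR called 0 of 10, with 4 higher at an unadjusted p under 0.05. The exceptions were Ptprc and Cd37. Per leukocyte count, 0 of 10 members had all treated tumors above the controls, against 1.18% of genes, although 9 of 10 had a higher mean in the treated group. The exact permutation p of Cd74 in this ratio was 0.5 (two-sided). For Cd74 there were 228, 122 and 70.3 counts per 100 leukocyte list counts in the controls, against 153, 161 and 217 in the treated tumors. Control 5 was the highest of all 6 tumors in this ratio for 9 of 10 members, Ctss being the exception. Without control 5 the ratio was higher without overlap in 9 of 10, against 11.2% of genes.

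Of the 10 macrophage genes, 3 had all treated tumors above the controls (Cd68, Fcgr1 and C1qb), with C1qb, a complement subunit, at 148.2, 133.9 and 80.1 CPM in controls 5, 6 and 7, against 148.5, 333 and 228 CPM in treated tumors 1, 2 and 5. The list summed to between 611 and 946 CPM in the controls and between 856 and 2062 CPM in the treated tumors, with a median log2 fold change of 0.83. By edgeR 0 of 10 were called, with 2 higher at an unadjusted p under 0.05, and DESeq2 called 1 of 10. Per macrophage count, 0 of 10 members were separated upward, against 0.553% of genes, and without control 5 it was 9 of 10, against 10.3%.

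Of the 10 dendritic cell genes, 0 had all GOx-DOX-LGP tumors above all controls and 1, Zbtb46, a transcription factor of conventional dendritic cells and endothelium, had all below. Itgax, the integrin CD11c, measured 86.2, 18.9 and 5.70 CPM in controls 5, 6 and 7, against 57.3, 42.3 and 64.9 CPM in treated tumors 1, 2 and 5. Xcr1 and Clec9a, receptors of cross-presenting dendritic cells, had log2 fold changes of 0.04 and -0.47. The list summed to between 42.0 and 148 CPM in the controls and between 87.3 and 129 CPM in the treated tumors, with a median log2 fold change of 0.20, and 0 of 10 were called by edgeR or DESeq2 or had an unadjusted edgeR p under 0.05. Relative to this list, 7 of 10 members were higher in all treated tumors than in all controls, against 7.24% of genes. For every 100 dendritic cell counts there were 1136, 963 and 705 Cd74 counts in the controls, against 1227, 1949 and 1653 in the treated tumors, and 423, 398 and 294 H2-Aa counts in the controls, against 445, 807 and 614 in the treated tumors. The exceptions were Ciita, H2-DMb1 and H2-Oa. The divisor is a sum of raw counts, and its make-up shifted between libraries. Itgax gave it 1965, 223 and 53 counts in controls 5, 6 and 7, against 1160, 864 and 1248 in treated tumors 1, 2 and 5. Zbtb46 gave it 156, 127 and 138 counts in the controls, against 126, 112 and 123 in the treated tumors. The ratio therefore cannot be read as class II RNA per dendritic cell. For Cd74 and H2-Aa control 5 and treated tumor 1 were the nearest libraries of the groups and their margin was narrow, and the exact permutation p of Cd74 was 0.1 (two-sided), the smallest possible. The count was between 7 and 9 of 10 with each library left out in turn, the 9 being without control 5, against 11.9% of genes. Per B cell count 0 of 10 members were separated upward, against 6.58% of genes, and without control 5 it was 9 of 10, against 48.4%.

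T cell genes set control 5 apart from the treated tumors, which the class II genes did not. Of the 10 T cell genes, 9 had all GOx-DOX-LGP tumors above all controls, Cd4 being the exception. Cd3g, a chain of the T cell receptor complex, measured 14.9, 13.3 and 6.46 CPM in controls 5, 6 and 7, against 28.4, 30.2 and 41.4 CPM in treated tumors 1, 2 and 5, where edgeR's adjusted p was 0.247 and that of DESeq2 0.00752. The list summed to between 34.7 and 103 CPM in the controls and between 138 and 214 CPM in the treated tumors, its median log2 fold change was 1.40, and edgeR called 0 of 10, with 7 higher at an unadjusted p under 0.05, and DESeq2 called 4 of 10. Cd4, which marks the T cells that read class II, measured 13.5, 8.06 and 3.66 CPM in the controls, against 12.1, 9.45 and 14.2 CPM in the treated tumors.

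Hepatocyte markers ran opposite to class II. All 10 hepatocyte genes were higher in controls 6 and 7 than in the other 4 libraries, with albumin (Alb) at 353, 73804 and 128244 CPM in controls 5, 6 and 7, against 1893, 733 and 1061 CPM in treated tumors 1, 2 and 5. The list summed to between 675 and 207001 CPM in the controls and between 1399 and 3517 CPM in the treated tumors, with no gene at 0, a median log2 fold change of -5.50, and 0 of 10 called by edgeR and 10 of 10 by DESeq2. With the mean of these genes as a covariate in edgeR, the members' median log2 fold change was 0.30. Ctss was at 0.62 (standard error 0.27, edgeR adjusted p 0.843), Cd74 at 0.31 (standard error 0.38) and Ciita at -0.30 (standard error 0.27). In that fit 0 of 10 members and 0 of 15374 genes were called, so the count does not set the members apart. Clec4f, a lectin of Kupffer cells, the resident macrophages of the liver, measured 8.16, 96.8 and 100.8 CPM in the controls, against 12.5, 3.72 and 3.33 CPM in the treated tumors, so the controls with the fewest class II counts held the most Kupffer cell RNA. The 5 Kupffer cell genes summed to between 28.4 and 286 CPM in the controls and between 26.7 and 51.9 CPM in the treated tumors, with a median log2 fold change of -1.99, 0 called by edgeR and 1 lower by DESeq2. For the endothelial list the median was -0.69, with 4 of 5 genes (Pecam1, Cdh5, Kdr and Tek) below the controls in all treated tumors, 0 called by edgeR and 2 lower by DESeq2. The 5 fibroblast genes had a median of -0.12, with none separated in either direction and 0 called by either tool, but they differed among themselves. The collagen gene Col1a1 measured 2281, 334 and 223 CPM in controls 5, 6 and 7, against 1852, 2260 and 806 CPM in treated tumors 1, 2 and 5, and Col1a2 was likewise lowest in controls 6 and 7, whereas Dcn, a proteoglycan, was highest there. The part of these cells in the class II values was not tested beyond the hepatocyte covariate. How much liver tissue each tumor piece held cannot be told apart from the tumor it came from.

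**Figure D4:**
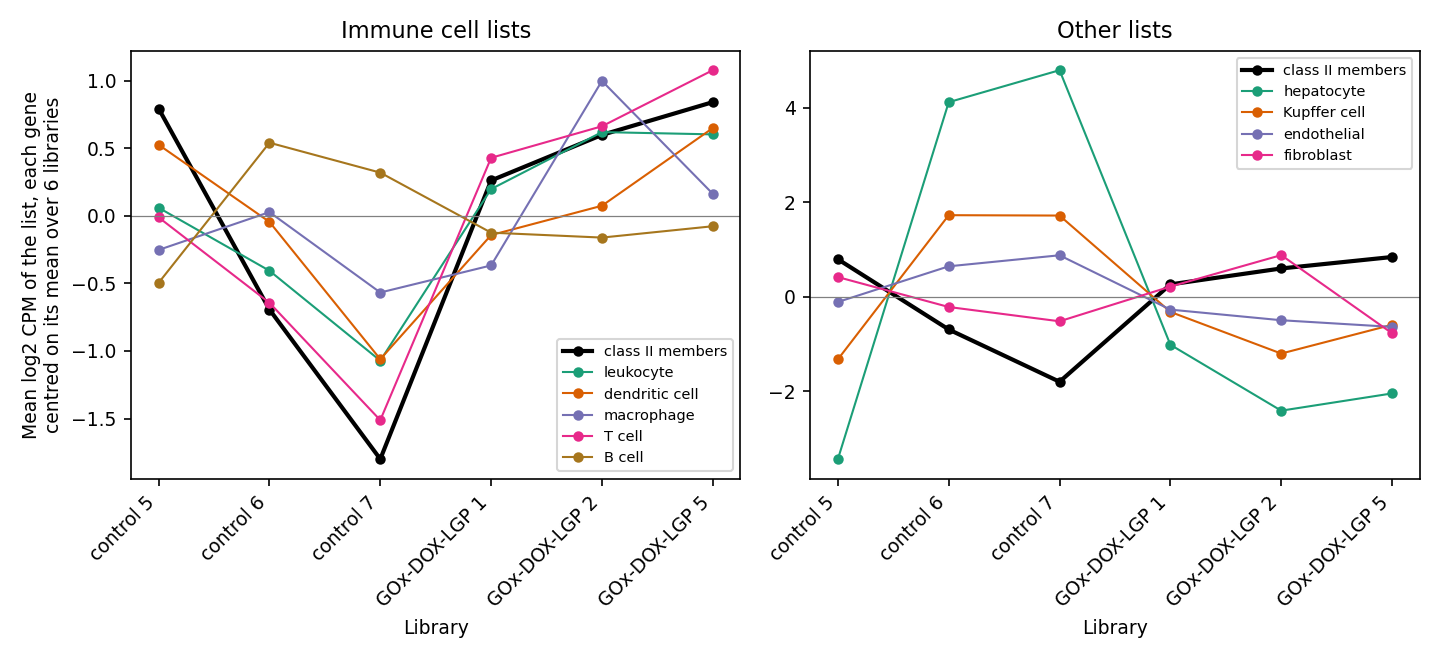
Mean log2 CPM of the class II genes (black) and of marker lists, each gene centered on its mean over the 6 libraries, for immune cell lists (left) and other lists (right), with lines that only join the points of a list. The class II genes are high in control 5 and the 3 GOx-DOX-LGP tumors and low in controls 6 and 7 (-0.69 and -1.80), where the hepatocyte genes are highest (4.12 and 4.79).

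Among 18 other genes of the class II pathway, 17 passed the filter and 0 were called by edgeR or DESeq2. Their median log2 fold change was 0.09, with 4 genes above and 2 below the controls in all treated tumors, and with 1 higher (Lgmn) and 3 lower (Rfx5, Nfyb and Ctsh) at an unadjusted p under 0.05. Without control 5, edgeR called 8 of the 18, 4 of them higher, against 47.7% of all genes in either direction. Those above encode enzymes that work on antigen in the endosome. Lgmn, an asparaginyl endopeptidase, measured 203, 169.7 and 125 CPM in controls 5, 6 and 7, against 232, 457 and 317 CPM in treated tumors 1, 2 and 5 (log2 fold change 1.02, edgeR adjusted p 0.249). Ifi30, a thiol reductase that opens disulfide bonds of antigens, measured 67.6, 41.9 and 28.5 CPM in the controls, against 73.4, 76.4 and 99.7 CPM in the treated tumors (log2 fold change 0.85, edgeR adjusted p 0.289). The cathepsins Ctsb and Ctsd also lay above all controls, with log2 fold changes of 0.27 and 0.38.

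The other proteases took different courses. Ctsl had a log2 fold change of 0.43, Ctsz one of -0.09 and Ctsh one of -1.28 (edgeR adjusted p 0.259), with Ctsh at 105, 303 and 376 CPM in controls 5, 6 and 7, against 104, 111 and 108 CPM in treated tumors 1, 2 and 5. Thus Ctsh was high in the hepatocyte-rich controls, where class II was low. March1, a ubiquitin ligase that removes class II from the surface, had a log2 fold change of 0.41.

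Of the factors that bind the X and Y boxes, Rfx5 and Nfyb were those with all treated tumors below all controls, against 8.31% of all genes. The mean level in the treated tumors was also lower for Rfxap, Rfxank and Nfyc, with overlap between the groups. Rfx5, the subunit of the X box complex, measured 16.2, 19.6 and 19.3 CPM in controls 5, 6 and 7, against 11.1, 12.8 and 12.2 CPM in treated tumors 1, 2 and 5. All treated tumors lay below the controls, with a log2 fold change of -0.61 and an edgeR adjusted p of 0.247. Its partners Rfxap and Rfxank had log2 fold changes of -0.57 and -0.20. Nfyb, a subunit of the Y box factor, measured 39.8, 61.1 and 76.7 CPM in the controls, against 34.8, 29.3 and 32.0 CPM in the treated tumors, again with all treated tumors below (log2 fold change -0.88, edgeR adjusted p 0.247). Nfya, Nfyc and Creb1 had log2 fold changes of 0.40, -0.27 and 0.05, and Nfya, at 59.9, 31.5 and 22.6 CPM in controls 5, 6 and 7, against 56.6, 47.1 and 46.5 CPM in treated tumors 1, 2 and 5, had the class II order of controls. From the members' mean profile, of which Ciita is a part, the root mean square difference on the log2 scale was 0.21 for Ciita, 0.33 for Irf8, 0.36 for Irf1, 0.53 for Nfya, 0.78 for Creb1, 1.21 for Rfx5 and 1.44 for Nfyb.

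Of 9 genes of the interferon gamma input, 0 were called by edgeR and 9 had a fitted log2 fold change above 0 (median 0.53). Irf1, which helps induce Ciita, measured 235, 72.9 and 67.8 CPM in controls 5, 6 and 7, against 184, 173 and 223 CPM in treated tumors 1, 2 and 5, so control 5 was the highest. Jak1, a kinase of the receptor, had a log2 fold change of 0.04. Ifng itself was at 2.11, 0.254 and 0.430 CPM in the controls, against 2.92, 1.42 and 3.43 CPM in the treated tumors, close to the smallest detectable level in controls 6 and 7. Ifng is named after its values had been seen.

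Of 8 costimulatory and checkpoint genes of antigen presenting cells, 8 had a fitted log2 fold change above 0 (median 1.09), 3 (Cd40, Tnfsf4 and Tnfsf9) had all treated tumors above the controls, and 0 were called by edgeR. Cd274, which encodes PD-L1, measured 64.3, 11.4 and 9.47 CPM in controls 5, 6 and 7, against 52.4, 73.3 and 55.7 CPM in treated tumors 1, 2 and 5. Cd86 measured 29.0, 14.8 and 6.99 CPM in the controls, against 23.4, 32.5 and 31.0 CPM in the treated tumors. Cd80, the other ligand of CD28, was highest in control 5 at 42.4 CPM, against 9.67 and 3.98 CPM in controls 6 and 7 and 22.7 to 26.2 CPM in the treated tumors. For Cd274, Cd86 and Cd80, as for the 10 class II genes, control 5 was above treated tumor 1.

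The genes whose profile came nearest to the members' mean, among 9985 with a mean log2 CPM of at least 3, were Ccdc88b, Fgl2, H2-Ea-ps, Npdc1, Pck2, Ptpre, Lpcat2, Cd300c2, Pik3r5 and Bbs12. Their root mean square differences were between 0.11 and 0.15 on the log2 scale over the 6 libraries, where the median over these genes was 0.97. H2-Ab1, Cd74 and H2-DMb2 themselves were at 0.10, H2-Aa and H2-Eb1 at 0.14, Ctss at 0.36 and H2-Oa at 0.75. Fgl2, a fibrinogen-like protein made by T cells and macrophages, measured 90.3, 27.4 and 15.2 CPM in controls 5, 6 and 7, against 60.5, 80.9 and 77.4 CPM in treated tumors 1, 2 and 5. H2-Ob, at 0.47, was further from the profile than Irf1 (0.36).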

How the data were processed

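RNA of 3 control and 3 GOx-DOX-LGP tumors was analysed from the raw counts per gene that the authors deposited, which are not normalized or pooled. The deposited signal values, scaled from those counts with 1 size factor per library, were used for gene symbols and to check the counts. For alignment and counting, the supplementary methods name TopHat and HTSeq, whereas the submitters' processing notes name HISAT2 2.1.0 and featureCounts 2.0.0, after Trimmomatic 0.38. Genome build, annotation release and use of strand are not given in the sources used here, and positions are from GENCODE M21 on GRCm38.

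Counts were filtered with filterByExpr, normalized with TMM and tested over all 6 libraries with the quasi-likelihood test of edgeR 4.0.16 in R 4.3.3, adjusted over 15374 genes (threshold 0.05). DESeq2 1.42.0 and limma 3.58.1 (voom) were alternatives. SciPy 1.17.1 gave the exact permutation tests. For single genes these used log2 CPM with a prior count of 2, and for ratios within a library the log2 ratios of raw counts. Steps were tested on simulated data. Named genes were the members, the other listed pathway genes, the 3 most abundant of each further list and the 10 nearest profiles, and a few genes outside this rule, such as Zbtb46, Cd4 and Cd40, were named after values had been seen. Members, lists and tests were chosen with earlier results of these data known. Values of some listed genes are not reported here.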

Additional observations from a re-analysis of the deposited data

How the results depend on the processing

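No paired analysis was possible because the groups share 1 replicate number, 5. Of 170 log2 fold changes of single members under other settings, 149 kept their sign and side of the threshold. The 9 that passed the threshold all came from the comparison without control 5, where the count of members called went from 0 to 9 and the count without overlap from 0 to 9, and without GOx-DOX-LGP tumor 1 the latter was 6. Leaving out each library, the members' median log2 fold change lay between 0.51 and 1.85, that of Ciita between -0.11 and 1.55 and that of H2-Oa between -0.65 and 0.72. Without controls 6 and 7 the members' median was -0.01.

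Signs reversed 12 times. Ciita went to -0.21 with scaling to leukocyte genes, -0.30 with the hepatocyte covariate, -0.11 without control 7 and -0.74 without controls 6 and 7. H2-Oa went to 0.05 with library totals, 0.01 with library totals without hepatocyte genes, 0.72 without control 5 and 0.18 without GOx-DOX-LGP tumor 2. Without controls 6 and 7 the values were -0.01 for H2-Ab1, -0.02 for H2-Eb1, -0.20 for H2-DMb1 and -0.12 for H2-DMb2. The log2 difference of H2-Oa per B cell count was 0.34, against -0.68 per leukocyte count. The causes were not tested. Per Cd74 count, and chosen after values had been seen, the log2 difference with each library left out stayed between -1.52 and -0.59 for H2-Oa and between -1.10 and -0.67 for H2-Ob.

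Scaling moved the median of all genes, to 0.51 with library totals, 0.43 with totals without hepatocyte genes, 0.19 with the upper quartile and -0.74 with leukocyte genes. Relative to that median the members' median was 0.66, 0.69, 0.84 and 1.05, against 0.90 with TMM. Depth limits H2-Oa most, with 4 counts in control 7.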
